A study of Physcomitrium patens with 20 samples.

Results

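A set of 1603 transposable elements (TEs) of the moss Physcomitrium patens had transcripts in every library of the cmt/dnmt3b double mutant and almost none in wild type or in 5 other DNA methyltransferase mutants. These member TEs are 0.664% of the 241351 TE rows counted. They were chosen from the transcript levels themselves, as counts for every 1000000 counts of a library (CPM): a mean under 0.1 CPM in wild type, a mean under 0.25 CPM in each of drm12, met, cmt, dnmt3b and met/dnmt3b, and at least 1 CPM in each of the 3 cmt/dnmt3b libraries. Their low level in 6 genotypes and their level in the double mutant are therefore how they were found, and are given below as a description. Where calls of a fit across all features are counted for them, those counts describe the choice and are no test of it.

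The study sequenced polyadenylated RNA of protonema, the filamentous young tissue that grows from a moss spore, from cultures 7 days old on BCDAT medium. Its 20 libraries were wild type (wt), drm1drm2 (drm12), cmt, dnmt3b, met/dnmt3b and cmt/dnmt3b with 3 libraries each and met with 2, all of the cultivar that the labels call Grandsen. The labels do not say how the mutations were made, whether a mutant is more than 1 line, or whether replicates were separate cultures. The labels give a batch for each library: batch 2 held all cmt/dnmt3b and dnmt3b libraries together with replicate 3 of wt, of drm12 and of cmt, and batch 1 held all other libraries.

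In plants, methyl groups on cytosine mark and silence TEs. MET maintains methylation at CG sites, CMT at CHG sites (H is any base but G), and in this moss DNMT3b is the enzyme that methylates CHH sites of heterochromatin. The DRM proteins, DRM1 and DRM2, are kin of enzymes that flowering plants direct to DNA with small RNAs. The cmt/dnmt3b plants thus lack the main enzymes of both kinds of methylation outside CG, and each single mutant keeps one of them. The deposited table names a TE only by a number, so its family, length, sequence and position are not given here.

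Libraries held between 14236575 and 21811993 counts, so that 3 counts, the most that a count of 0 allows, correspond to between 0.138 and 0.211 CPM in a library. These limits cover counting error only. The defining genes of protonema and the mutated genes themselves were not looked up, because the identifiers are not paired with gene names in the sources used here. Replicates of a genotype differed by more than sampling noise in all 19 pairs, the lowest chi-square being 6.87 for each degree of freedom.

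In bulk RNA, more cells with a transcript and more transcript per cell cannot be told apart. The member TEs together reached 6208, 5451 and 6674 CPM in cmt/dnmt3b replicates 1, 2 and 3, or 0.611% ± 0.0617 of all counts (SD, n = 3). They held 20.2%, 18.5% and 18.5% of the TE counts of these libraries. In wt they summed to 2.51, 2.57 and 21.4 CPM in replicates 1, 2 and 3. The third wt library, the one in batch 2, stood far above the other 2, and the mean of the double mutant was 285 times its sum. In drm12 the sums were 4.12, 2.09 and 64.7 CPM, and again the batch 2 library was the highest. In met they were 42.1 and 7.45 CPM, both in batch 1. In cmt they were 32.1, 41.0 and 253 CPM, with the batch 2 library highest. In dnmt3b they were 92.2, 67.8 and 64.3 CPM, and in met/dnmt3b 145, 171 and 126 CPM. The highest library of another genotype, cmt replicate 3, had 4.14% of the double mutant's mean, and met/dnmt3b as a group had 2.41% ± 0.362 (SD, n = 3).

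**Figure D1:**
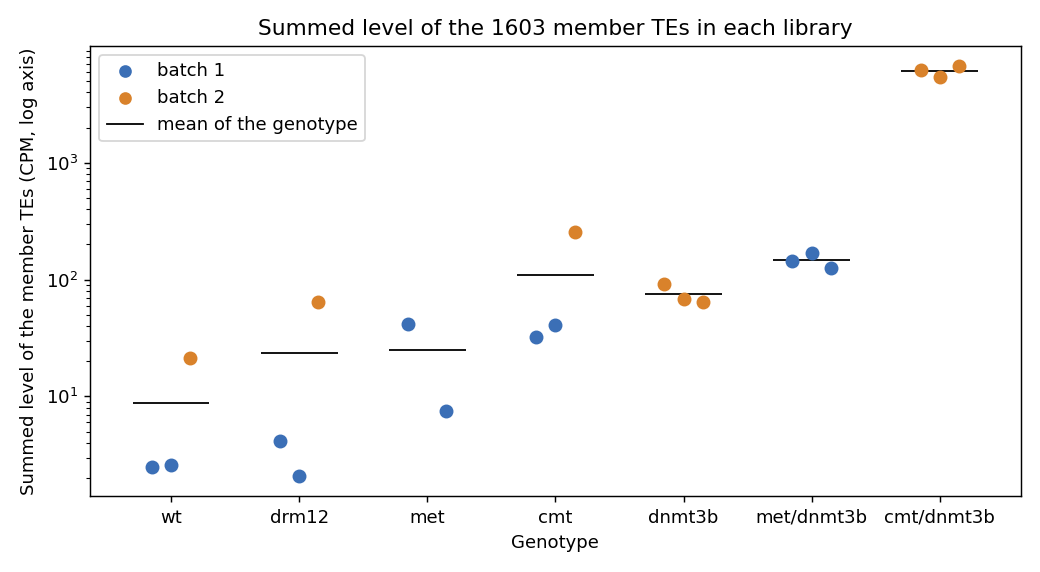
Summed level of the 1603 member TEs (CPM, log axis) in each of the 20 libraries by genotype; points are libraries coloured by batch and lines are genotype means. The 3 cmt/dnmt3b libraries lie between 5451 and 6674 CPM, and the highest of the others, cmt replicate 3, at 253 CPM.

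Single elements contributed little each. The mean level in cmt/dnmt3b had a median of 2.66 CPM over the member TEs, with the middle part of the distribution, from the 25th to the 75th percentile, between 1.85 and 4.43 CPM. Of the 1603, 337 (21.0%) had a mean of at least 5 CPM and 70 (4.37%) of at least 10 CPM. The 10 highest held 5.67% of the summed level and the 100 highest 23.3%. The median member had 141 counts over the 3 cmt/dnmt3b libraries and 11 over the 17 others. In wt, 1345 members (83.9%) had no count in any library, and the double mutant's level was then at least 16.0-fold higher for every one of them and at least 42.5-fold higher for the median, taking 3 counts over the 3 wt libraries (0.0639 CPM) as the wt level. The floor of 1 CPM fixes the lower of these values.

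The member with the highest level was TE 816169, at 64.8, 74.9 and 74.1 CPM in cmt/dnmt3b replicates 1, 2 and 3. It had 0 counts in the wt, drm12, met and dnmt3b libraries, 1 count in cmt replicate 1, 12 counts in cmt replicate 3 and 1 count in met/dnmt3b replicate 2, and was at least 1114-fold higher in the double mutant than in wt. TE 946887 followed with 45.6, 55.4 and 69.1 CPM in cmt/dnmt3b. It had 21 counts over the other 17 libraries, among them 4, 3 and 1 in cmt, 3, 4 and 1 in dnmt3b and 1 in each met/dnmt3b library. Its highest library outside the double mutant was cmt replicate 1, at 0.241 CPM.

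TE 961800 was the third highest, and the highest with no count at all outside the double mutant. It had 981, 762 and 1006 counts in cmt/dnmt3b replicates 1, 2 and 3 (48.5, 51.8 and 57.0 CPM) and 0 in each of the other 17 libraries. The element in the next row of the table, TE 961106, had 7.07, 6.66 and 10.6 CPM in the double mutant and likewise no count elsewhere. In all, 62 members (3.87%) had no count in the 17 other libraries. The next of these by level were TE 834316 at 8.02 ± 1.61 CPM, TE 808260 at 6.80 ± 0.589 CPM and TE 815776 at 6.67 ± 2.09 CPM (SD, n = 3 each).

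The other members among the 10 highest had means between 20.9 and 28.0 CPM in cmt/dnmt3b. TE 845986 had 30.6, 21.5 and 31.8 CPM and 37 counts elsewhere, 15 of them in cmt replicate 3. TE 901216 had 25.1, 22.1 and 29.0 CPM, TE 849976 had 25.0 ± 6.32 CPM (SD, n = 3), and TE 854937 had 20.4, 23.6 and 26.5 CPM. TEs 947153, 903380 and 940077 had means of 21.9 ± 3.52, 21.2 ± 2.48 and 20.9 ± 2.81 CPM (SD, n = 3 each). Each of these 7 had between 4 and 15 counts in cmt replicate 3. Of the 10 highest members, only 903380 had a count in wt, 2 counts in replicate 3.

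**Figure D2:**
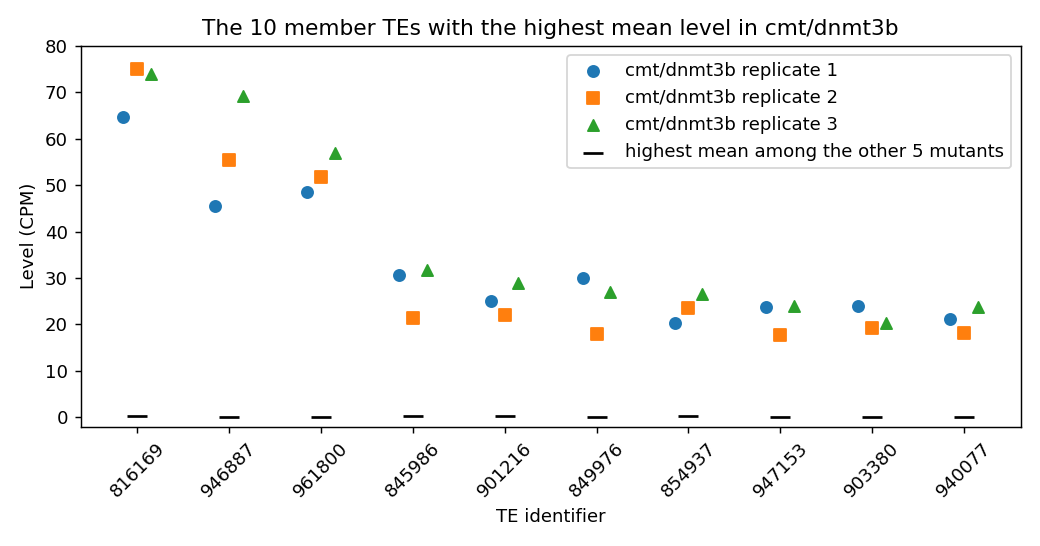
Level (CPM) of the 10 member TEs with the highest mean in cmt/dnmt3b; symbols are the 3 cmt/dnmt3b libraries and the black dash is the highest mean among the other 5 mutants. The leading TE, 816169, lies between 64.8 and 74.9 CPM, and the black dashes are all under 0.25 CPM.

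The 3 double-mutant libraries ranked the members alike. Across the 1603 elements, Pearson's r of the log2 CPM was 0.879 between replicates 1 and 2, 0.882 between 1 and 3 and 0.852 between 2 and 3. These elements are not independent replicates, and the libraries share a batch. The median coefficient of variation over the 3 libraries was 20.6%, against the 15.2% that counting error alone gives. The highest library was replicate 3 for 793 members (49.5%), replicate 1 for 518 (32.3%) and replicate 2 for 292 (18.2%). For 208 members the highest library was more than 2 times the lowest, and for 11 more than 3 times. The largest spread was that of TE 801831, with 3.76, 1.49 and 5.89 CPM in replicates 1, 2 and 3. The next were TEs 749561, 934634, 943962 and 919533, with ratios of the highest to the lowest library between 3.26 and 3.63. TEs 801831, 934634, 943962 and 919533 were lowest in replicate 2, and TE 749561 in replicate 1.

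The limits of the rule run through a continuous range of levels. Just inside the floor, the lowest library of TEs 758760, 755784, 766270, 767043 and 768766 had 1.02 CPM. Just outside it, the lowest library of TEs 753276, 773649, 786132, 792891 and 797659 had 0.989 CPM, with means between 1.39 and 1.63 CPM in cmt/dnmt3b. Just inside the ceiling of 0.25 CPM were TE 932175 (0.249 CPM in dnmt3b), TEs 917824 and 792750 (0.249 CPM in cmt), TE 765299 (0.249 CPM in met/dnmt3b) and TE 925957 (0.249 CPM in dnmt3b). Just outside it were TEs 792411, 861528, 910675, 929902 and 935180, all by a met/dnmt3b mean that reached 0.25 CPM. Of these, TE 929902 had 12.3 ± 1.10 CPM in the double mutant (SD, n = 3).

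In all, 4041 TEs had at least 1 CPM in each cmt/dnmt3b library, and the member TEs were 39.7% of them. Wild type removed 413, which had a mean of 0.1 CPM or more there. Of the 3628 others, 1519 reached the ceiling in met/dnmt3b, 922 in cmt, 759 in dnmt3b, 143 in drm12 and 126 in met. For 652 of them met/dnmt3b was the only mutant at the ceiling, for 384 cmt, for 79 dnmt3b and for 1 met, while 909 reached it in more than 1 mutant. TEs with a full level in both double mutants were few. By the same limits in wt and the single mutants, 25 TEs had at least 1 CPM in every library of both met/dnmt3b and cmt/dnmt3b. A further 148 TEs were under 0.1 CPM in wt and at least 1 CPM in every cmt and every cmt/dnmt3b library. Those 148 had a median of 7.29 CPM in cmt/dnmt3b and held 8.14% of its TE counts, less in all than the 19.1% ± 0.964 of the members (SD, n = 3).

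Few gene rows met the same limits: 10 of all 31967, against 1603 of 241351 TE rows. The gene rows that were under the wt ceiling are not counted here, so these shares are not like for like. Pp3c7_13420 had the highest level of the 10 genes, 9.57 ± 2.17 CPM in cmt/dnmt3b against 0.212 ± 0.0401 in cmt and 0.232 ± 0.228 in dnmt3b (SD, n = 3 each). Pp3c6_29290 and Pp3c7_25260 had 3.37 ± 0.162 and 3.33 ± 2.22 CPM in the double mutant. The other 7 had means between 1.31 and 2.26 CPM.

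Although the ceilings keep them low, most members had some counts in another mutant. For 792 of the 1540 members with a count in another mutant (51.4%) the highest of the other 5 mutants was met/dnmt3b, for 505 (32.8%) cmt, for 196 (12.7%) dnmt3b, for 26 met and for 21 drm12. A count was found in met/dnmt3b libraries for 60.0%, 70.0% and 60.7% of the members. In dnmt3b libraries it was 41.3%, 33.9% and 29.9%, and in cmt 21.1%, 26.9% and 68.2%. In wt it was 1.68%, 2.25% and 12.9%, the last in batch 2. Of the members, 237 (14.8%) had no count in met/dnmt3b, 400 (25.0%) none in cmt and 661 (41.2%) none in dnmt3b.

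These low levels went with batch. The summed level in the batch 2 library was 8.44 times the batch 1 mean in wt, 20.8 times in drm12 and 6.93 times in cmt. For all TEs that are not members the same ratios were 1.71, 3.14 and 1.78. The met libraries, both of batch 1, differed 5.64-fold in the members and 1.07-fold in other TEs. A sum is led by its TEs of highest level, and the rule kept TEs of high level in these genotypes out of the members. The sums of members and of other TEs are therefore not like for like. By element, the fit described below gave a median log2 batch difference of 1.89 over the members and 2.38 over all TEs tested. Within batch 1 the members' sum was 58.0 times that of wt in met/dnmt3b, 14.4 times in cmt, 9.75 times in met and 1.22 times in drm12. Within batch 2, with a single wt library, it was 11.8 times wt in cmt replicate 3, 3.49 times in dnmt3b and 3.02 times in drm12 replicate 3. Within that batch the double mutant was 24.1 times cmt, 81.8 times dnmt3b, 94.5 times drm12 and 285 times wt.

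The low levels were also set beside the level in the double mutant. When the members were ranked by level in cmt/dnmt3b and split into 4 groups of like size, in the lowest group (1.03 to 1.85 CPM), the sum in cmt replicate 3 was 7.69% of that in the double mutant, and in the highest group (4.43 to 71.3 CPM) it was 2.79%. In met/dnmt3b the shares were 5.57% and 1.26%, in dnmt3b 3.32% and 0.582%, in drm12 replicate 3 3.71% and 0.338%, and in wt replicate 3 1.16% and 0.142%. The ceilings limit the share more for members of high level, so a fall follows from the rule, and whether any of it goes beyond the rule was not tested. TE 961800, with 2749 counts in the 3 double-mutant libraries, had 0 in the 6 other libraries of batch 2. It was singled out as the highest of the 62 members with no count outside the double mutant, and is not typical. The other members of highest level named above, from TE 816169 to TE 940077, had between 1 and 15 counts in cmt replicate 3. The cause of the low levels was not tested.

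**Figure D3:**
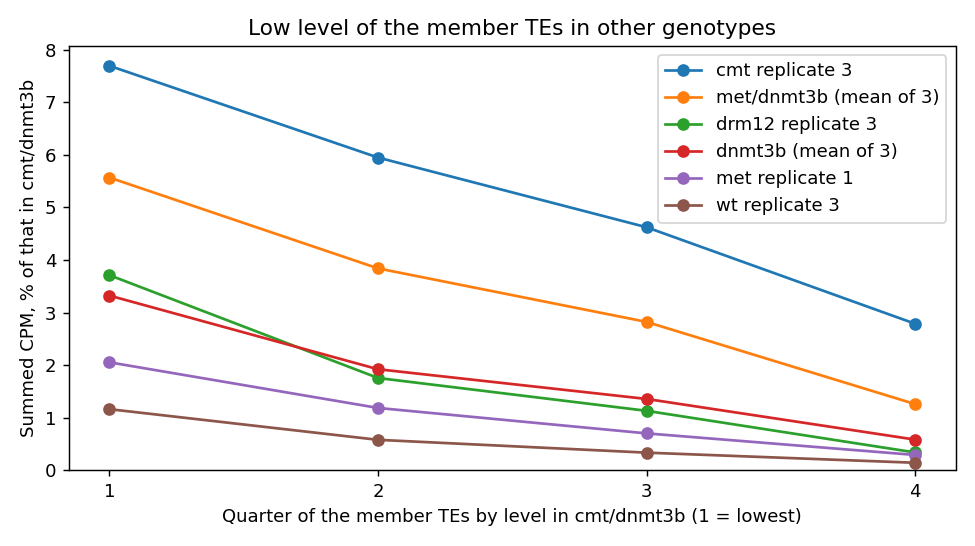
Summed CPM of the member TEs in other genotypes, in percent of that in cmt/dnmt3b, over 4 groups of like size of the members ranked by their level in cmt/dnmt3b; each line is a library or the mean of a genotype. All 6 lines fall from the lowest group (7.69% in cmt replicate 3) to the highest (2.79%), a direction that the ceilings of the rule favour.

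The batch term compares libraries whose means the rule held under its ceilings, and the members entered the fit only through their level in cmt/dnmt3b, so its calls are a description too. In edgeR's quasi-likelihood fit with genotype and batch as terms, estimated from wt, drm12 and cmt, 221 of the 1603 members were higher in batch 2 at an adjusted p under 0.05 (Benjamini-Hochberg over the 26751 features tested), beside 8.31% of all features and 29.8% of the TEs tested. The ceilings bear on the members' count, and nothing is read from its distance to these shares. The median log2 difference between batch 2 and batch 1 was 1.89 over the members, 2.38 over all TEs tested and 0.09 over all features. TE 976521, singled out after its value was seen, was lower in batch 2, by a log2 difference of -4.42, as were 1.56% of all features. The members' count was lowest without cmt replicate 3, and the counts over all features and over TEs fell too. Without that library 36 members were called in either direction, while 92 were called without cmt replicate 1 and 113 without cmt replicate 2. Higher in batch 2 without cmt replicate 3 were 1401 of 26594 features and 1012 of 6506 TEs. Without cmt replicate 1 these were 1448 of 26747 and 1309 of 6604, and without cmt replicate 2 1867 of 26606 and 1689 of 6519. Without cmt replicate 3 the median log2 difference over the members was close to 0. Only wt and drm12 then inform the batch term, and 1345 members had no count in wt and 1106 none in drm12. That median is therefore no measure of the difference. The summed level in batch 2 was 8.44 times that in batch 1 in wt and 20.8 times in drm12.

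The contrasts of the double mutant repeat the choice of the members and are read only as a description. All 1603 members passed the low-count filter of edgeR, which their level in cmt/dnmt3b alone ensures. Against wt, 1587 were higher in cmt/dnmt3b by edgeR's test, beside 26.5% of all features and 79.8% of the TEs tested. The median log2 fold change was 7.49 over the members and 0.05 over all features. Without wt replicate 3, the only wt library of batch 2, 147 were higher. Against cmt, 1390 were higher (17.8% of all features and 55.9% of TEs), with a median log2 fold change of 4.89, and 17 without cmt replicate 3. Against dnmt3b, whose libraries share the batch of the double mutant, 1602 were higher (28.7% of all features and 80.3% of TEs), with a median of 6.66, and between 1599 and 1603 when any 1 library was left out. Against met/dnmt3b, which shares no batch with cmt/dnmt3b, 85 were higher (3.29% of all features and 6.65% of TEs) although the median log2 fold change was 3.13, and 1571 were higher with no batch term. The batch and these genotypes are told apart only through wt, drm12 and cmt. Without cmt replicate 3 the count against met/dnmt3b was 5, beside 467 of 26594 features and 69 of 6506 TEs. It was between 47 and 55 without cmt replicate 1 or 2, any 1 cmt/dnmt3b library, or met/dnmt3b replicate 1 or 3. In those fits 551 to 757 features were higher, of 25837 to 26747 tested. Of the 5885 to 6604 TEs tested, 320 to 355 were higher. The interaction of cmt and dnmt3b, which asks on the log2 scale whether the double mutant departs from the sum of the changes seen in the single mutants, had a median of 4.44 over the members and was called for 21 of them (2.29% of all features and 1.79% of TEs). It was called for 4 without wt replicate 3, 5 without cmt replicate 3 and 39 without drm12 replicate 3. In the same order, the features called higher were 743 of 26753, 687 of 26594 and 1324 of 26570. The TEs called higher were 60 of 6603, 57 of 6506 and 178 of 6499. Without wt replicate 2, cmt replicate 1 or any 1 cmt/dnmt3b library the members' count was between 8 and 13. In those fits it was 293 to 513 of 25837 to 26752 features, and 52 to 77 of 5885 to 6608 TEs.

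The rule was also applied with 1 library left out, and the TEs then chosen were read in that library. When the rule used only 2 of the cmt/dnmt3b libraries, it chose 1759, 1815 and 1705 TEs without replicates 1, 2 and 3 in turn. Of these, 91.1%, 88.3% and 94.0% had at least 1 CPM in the library left out, with medians of 2.47, 2.24 and 2.78 CPM there. The TEs that did were the 1603 members each time, so these shares show how far the library left out narrows the choice. When a wt library was left out, 99.4%, 99.6% and 95.1% of the TEs chosen were under 0.1 CPM in replicates 1, 2 and 3. Of all 241351 TE rows, only 1324, 1752 and 3216 had any count in these libraries, so TEs at large are mostly under this limit too. For dnmt3b between 93.5% and 96.8% of the TEs chosen were under 0.25 CPM in the library left out, and for met/dnmt3b between 82.6% and 93.1%. For cmt it was 98.9% and 98.7% in replicates 1 and 2 and 67.2% in replicate 3, where the median level of the 1750 TEs chosen without it was 0.138 CPM. In drm12 replicate 3 it was 95.3%. Among these mutant libraries the most TE rows with any count were 9967, in met/dnmt3b replicate 1. The shares under a ceiling are therefore no test of the members.

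The numbers that name the TEs carry an order of their own, which the rule did not use. The rows of the table run through 27 blocks of consecutive identifiers, as many as there are chromosome numbers in the gene identifiers, and a last, mixed block. The number of rows of the first 27 blocks followed the highest gene number of the chromosome of the same rank, with a Pearson's r of 0.983 over 27 pairs, as a description. Within each of these blocks the identifiers form at least 14 interleaved series, each rising along the rows, and the first 14 come in the same order of identifiers in each block. What the series stand for is not given in the sources used here, and the series are numbered here by that order. Series of few rows could be merged or shifted in a block, and 87 rows could not be placed.

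Series 2 held 852 of the 1603 members, 53.2% (95% exact interval 50.7 to 55.6%, counting error only), beside 31.5% of all TE rows and 42.6% of the TEs with at least 1 count in any library. It also held 2186 of the 4041 TEs at 1 CPM or more in every cmt/dnmt3b library, of which 39.0% were members, close to the 39.7% over all series. It had members in all 27 blocks, between 5 and 72 in each. Series 12 is small, with 1133 rows (0.469% of all TE rows), but held 140 members (8.73%). Of its rows, 12.4% were members (95% exact interval 10.5 to 14.4%), against 1.12% of series 2. It was also the series most often transcribed in any library: 91.3% of its rows had at least 1 count, between 78.9% and 100% in each block, against 16.1% in series 2. Among the detected rows, the share of members was 13.5% in series 12 and 6.96% in series 2. Among the TEs at 1 CPM or more in every cmt/dnmt3b library, however, members were 30.2% of the 463 in series 12, below the 39.7% over all series. The high counts of members in series 2 and 12 thus go with high counts of all TEs transcribed in the double mutant.

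Series 1 stood at the other end. It is the second largest, with 23.8% of all TE rows and 11.8% of those detected, and held 6 members (0.374%), or 6.90% of its 87 TEs at 1 CPM or more in every cmt/dnmt3b library, but 31 (20.9%) of the 148 TEs transcribed in both cmt and cmt/dnmt3b. Series 14 held 32 (21.6%) of those 148 and 21 (1.31%) of the members. Series 2 held 6 (4.05%) of the 148, and series 12 held 1. Series 4 held 160 members (9.98%) and 35 of the 148, and series 3 held 96 members and 22 of the 148. Series 6 held 103 members and none of the 148. Series 9, with 15.5% of all TE rows, held 96 members (5.99%), series 8 held 65, and no member came from the 512 rows of series 11. Of the 25 TEs transcribed in both double mutants, 18 were in series 2 and 3 in series 12.

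**Figure D4:**
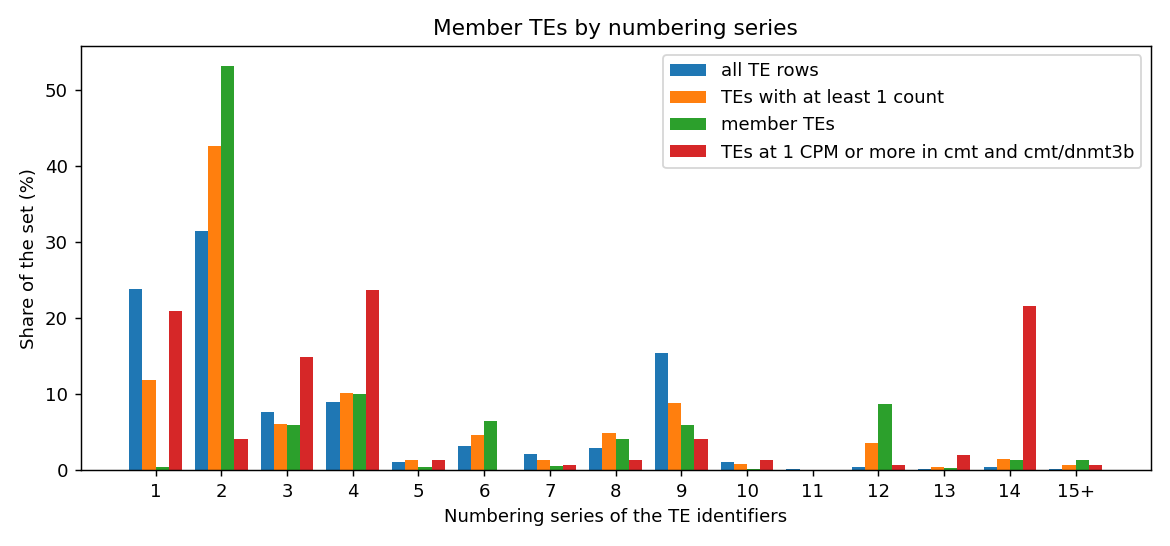
Share (%) of 4 sets of TEs that falls in each numbering series of the TE identifiers: all TE rows, TEs with at least 1 count, member TEs, and the 148 TEs with at least 1 CPM in every cmt and cmt/dnmt3b library. Series 2 holds 53.2% of the members and 4.05% of the 148, and series 1 holds 0.374% and 20.9%.

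The median of the member means was 2.76 CPM in series 2, 2.86 in series 12, 3.34 in series 9, 2.49 in series 6, 2.37 in series 4, 2.32 in series 8 and 2.14 in series 3. Of the 70 members at 10 CPM or more, 35 were in series 2, 7 each in series 4, 9 and 12, and none in series 3. The leading elements 816169 and 961800 belong to series 6, and 946887 to series 9. The level outside the double mutant varied more between series. In cmt it was 0.445% of the cmt/dnmt3b level in series 6 and 0.963% in series 9, against 1.91% in series 2, 2.10% in series 12 and 2.22% in series 4. In dnmt3b it was 0.586% in series 4 and 0.571% in series 3, against 1.44% in series 2 and 1.63% in series 12. These levels lie under the ceilings of the rule. Over all members the cmt level rests mostly on replicate 3, but the spread among cmt libraries differed between series. For each member it was 0.0721 ± 0.0977 CPM in series 2 and 0.0760 ± 0.0424 CPM in series 4 (SD, n = 3 each).

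The members were spread over the blocks and along them. There were between 3.06 and 10.7 members per 1000 TE rows in the 27 blocks, with a median of 6.53. Block 10 had the highest density (10.7, with 95 members) and block 16 the next (8.77, with 74 members), followed closely by block 21 (8.64, with 69). The members of block 16 also had the highest median level, 3.61 CPM, against 2.15 to 3.09 CPM in the blocks other than 10 and 16 and 2.80 CPM in block 10. In the same cmt/dnmt3b libraries the genes whose identifiers name chromosomes 16 and 10 were high as a set relative to genes at large. Their median log2 differences from the other 17 libraries, less the median over all genes used, were 0.87 (692 genes) and 0.58 (636 genes). For the genes of the other 25 chromosomes these medians were -0.14 to 0.16. All batch 1 libraries were among the 17, and all cmt/dnmt3b libraries were of batch 2. The part of this chromosome-wide difference in the density of members was not tested, and 1434 of the members lie outside both blocks. Over 10 successive parts of each block with like numbers of rows, the members' density was between 5.19 and 7.28 per 1000 rows.

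**Figure D5:**
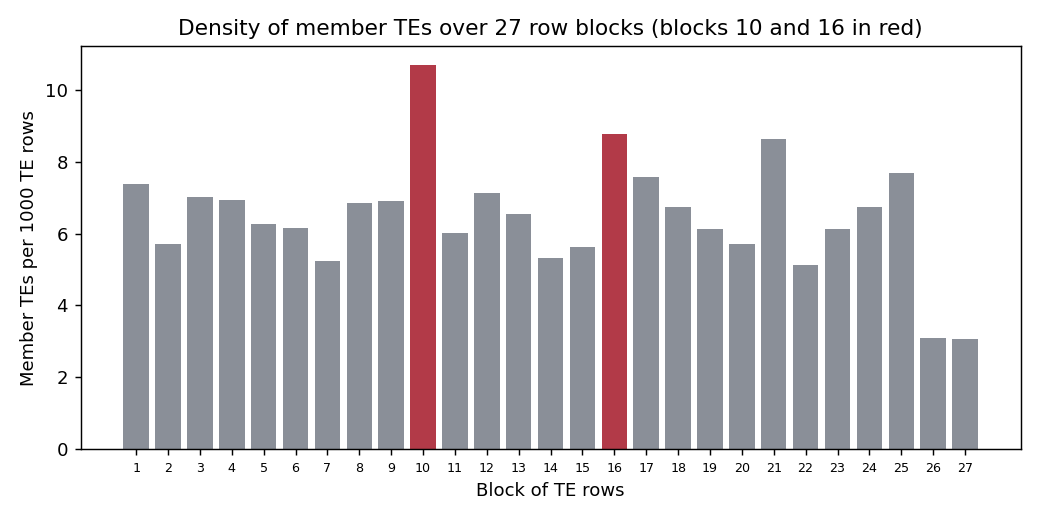
Member TEs per 1000 TE rows in each of the 27 row blocks. Blocks 10 (10.7) and 16 (8.77) are in red, and block 21 (8.64) is close to them.

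Members lay next to each other more often than rows at large are members. The row after a member was itself a member in 78 cases (4.88%), beside 0.664% of all TE rows. Such rows may be pieces of 1 element or share reads, and a read that maps to several copies may have been counted at any of them, since the handling of such reads is not given in the sources used here. Of the 78 neighbouring pairs, 27 were of the same series. Levels of neighbours differed by a median of 0.65 on the log2 scale, against 0.81 over all pairs of members. The longest run of members in successive rows was 3. Adjacency was not particular to the members. For the 148 TEs transcribed in both cmt and cmt/dnmt3b, 7.48% of the next rows were of the same class, beside 0.0613% of all TE rows. For the 25 TEs of both double mutants it was 0%. Only 28715 of the 241351 TE rows had any count, which makes a share of all rows a low bar.

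By identifier the longest runs were also of 3 elements, in 5 cases, of which 3 are given here. TEs 773562, 773563 and 773564 of series 12 in block 2 had 14.8 ± 0.625, 2.75 ± 0.0584 and 3.21 ± 0.809 CPM in the double mutant (SD, n = 3 each). TEs 854873, 854874 and 854875 of series 12 in block 10 had 6.94 ± 2.30, 1.94 ± 0.185 and 3.82 ± 0.184 CPM. TEs 795068, 795069 and 795070 of series 6 in block 4 had means of 1.99, 1.85 and 1.60 CPM, with single libraries between 1.25 and 2.72 CPM, and 1 count each in the other 17 libraries. TE 773562 lay above both of its neighbours in every double-mutant library, while the libraries of TEs 773563 and 773564 overlapped. The 3 elements of block 10 did not overlap, and those of block 4 did.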

How the data were processed

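Gene and TE counts of 20 libraries were used as deposited: whole-number counts per feature that the authors made from polyadenylated RNA of 7 days old protonema. Trim Galore 0.6.0, cutadapt 1.15 and STAR 2.7.0f are named in the submitters' processing notes. Not given in the sources used here are the build, the annotation, the strand setting and the handling of multi-mapping reads. Library totals were 14236575 to 21811993 counts, 0 columns lay outside the 20 libraries, and groups and batches came from the labels.

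CPM is a count divided by the total over all gene and TE rows, times 1000000. Member TEs were found by the limits given above, and the members and all lists were chosen with earlier results of these data known. Named TEs are the 10 with the highest mean in cmt/dnmt3b, the 5 nearest each side of the floor and of the mutant ceiling, the 5 highest with 0 counts elsewhere, the 5 of largest spread and the 3 longest runs of identifiers. Genotype and batch were fitted over all 20 libraries with edgeR 4.0.16 (R 4.3.3), by its quasi-likelihood test with TMM factors after its default filter on low counts, and p-values were adjusted by Benjamini-Hochberg over 26751 features. The fit was tested on simulated data with the same spread for every feature and no batch effect, a setting unlike that of the members. DESeq2 1.42.0, other scalings, no filter, no batch term, a replicate block, other limits and each library left out were the alternatives. Where replicates are not separate cultures, p-values measure technical spread. Chromosome medians of genes used genes of at least 2 CPM on average and log2 of CPM plus 0.5, with the median over all these genes subtracted. Intervals of shares are exact (Clopper-Pearson).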

Additional observations from a re-analysis of the deposited data

Results flagged for a closer look

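The interaction of cmt and dnmt3b was called for 21 of the 1603 member TEs by edgeR's quasi-likelihood test at a Benjamini-Hochberg adjusted p under 0.05. It was called higher for 613 of 26751 features (2.29%) and 118 of 6602 TEs tested (1.79%), and the share among members was not above these in this fit. The share among members was the higher one in 2 other settings. By DESeq2 the calls were 318 of 1446 members, 726 of 4893 TEs and 2010 of 24941 features. With no low-count filter they were 48 of 1603 members, 207 of 28715 TEs and 1235 of 54561 features. All 21 had a higher level in cmt/dnmt3b than the single mutants and wt add up to on the log2 scale. They are listed because the test compares the dnmt3b effect between plants with and without cmt. The members were chosen for this pattern, so the count is no independent evidence of it. The named TEs among the 21 were 903380 (log2 interaction 10.72), 767043 (10.32) and 766270 (8.27). All 3 had counts in wt and none in any dnmt3b library, and 767043 had none in cmt either. A log2 value that rests on a group without counts has no measured size, so these values give a direction only.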

How the results depend on the processing

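The number of member TEs followed the limits of the rule. It was 650 with a ceiling of 0.1 CPM, 2560 with 0.5 CPM, 824 with a floor of 2 CPM and 2498 with 0.5 CPM. Under these 4 settings in turn the share of all counts in cmt/dnmt3b was 0.206%, 1.11%, 0.464% and 0.704%, and that of TE counts 6.43%, 34.8%, 14.5% and 22.0%. With TMM scaling 1370 TEs were chosen, with 17.9% of TE counts. Leaving out 1 library gave 1463 to 1815 TEs, and shares of 0.583 to 0.644% and 18.5 to 19.4%. Series 2 held 45.1% of the members at a ceiling of 0.1 CPM and 56.7% at 0.5 CPM, series 12 held 5.38% and 11.02%, and series 1 held 0.121% at a floor of 2 CPM, settings added after seeing the data, as were batch 2 alone (1488 TEs, 1116 of them members) and no batch 2 library of wt, drm12 and cmt (1757 TEs, 1597 of them members).

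Deviations of same-numbered samples of cmt/dnmt3b and of wt, cmt, dnmt3b or met/dnmt3b, the pairs checked, had r between -0.12 and 0.24, so the numbers were not taken to pair these samples. With a replicate block the members called were 1392 against wt, 773 against cmt, 1601 against dnmt3b, 15 against met/dnmt3b, 9 for the interaction and 24 for batch. Of all 26751 features tested, 5127, 2531, 7257, 335, 420 and 594 were higher in the same order. Of the 6602 TEs among them, these were 3848, 1982, 5095, 189, 69 and 570. By DESeq2 they were 925 against cmt, 215 against met/dnmt3b, 318 for the interaction and 107 for batch. The TEs higher by DESeq2 in the same order were 2535 of 6226, 623 of 4893, 726 of 4893 and 1653 of 6919 tested. All features higher were 4064 of 27057, 1629 of 24941, 2010 of 24941 and 2020 of 28115. Only 1446 members were tested against met/dnmt3b and for the interaction. With no low-count filter the members called were 141 against met/dnmt3b and 48 for the interaction, and with no batch term 1571 and 11. Over all features, 1372 and 1235 of 54561 were higher with no filter, and 6126 and 372 of 26751 with no batch term. Over TEs these were 589 and 207 of 28715, and 4293 and 51 of 6602. Leaving out 1 library gave 147 to 1593 against wt, 17 to 1452 against cmt, 1599 to 1603 against dnmt3b, 5 to 118 against met/dnmt3b, 4 to 39 for the interaction and 36 to 234 for batch. The lowest were without wt replicate 3 (wt, interaction) or cmt replicate 3 (cmt, met/dnmt3b, batch). The cause was not tested. Without wt replicate 3, 1546 of 26753 features and 801 of 6603 TEs were higher against wt. Without cmt replicate 3, 959 of 26594 features and 151 of 6506 TEs were higher against cmt. With TMM factors from genes alone, the median of all features against wt moved from 0.05 to 0.25, and that of the members from 7.49 to 7.65. At these depths a member at 0 in a library may have had up to 0.138 to 0.211 CPM.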
